A study of Schizosaccharomyces pombe with 12 samples.

Results

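The fission yeast genes examined here encode enzymes that make, desaturate, activate and store fatty acids. They are cut6 (SPAC56E4.04c), fas1 (SPAC926.09c), fas2 (SPAC4A8.11c), the acyl-CoA desaturase gene SPCC1281.06c (ole1 in RefSeq), lcf1 (SPBC18H10.02), lcf2 (SPBP4H10.11c), plh1 (SPBC776.14) and dga1 (SPCC1235.15). The 8 genes were taken by identifier or symbol from the 7015 features of each deposited table, and all 8 were found and passed the filter on low counts. The RNA came from wild-type Schizosaccharomyces pombe without selection markers, in exponential phase in the rich medium YES. There were 4 samples in YES made with H2O, 4 after 5 h in YES made with 100% D2O (heavy water, in which deuterium replaces hydrogen) and 4 after 24 h in the same D2O medium. An H2O culture held for 5 h or 24 h was not analysed here, so exposure to D2O cannot be told apart from the transfer or from time in culture. The labels call the samples of a group independent but name no separate cultures, and p-values measure the spread between these samples.

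Fatty acid synthesis starts when acetyl-CoA carboxylase turns acetyl-CoA into malonyl-CoA. The fatty acid synthase, built from alpha and beta subunits, joins these units into saturated long-chain acyl-CoA, and a desaturase of the endoplasmic reticulum introduces a double bond. Long-chain fatty acid-CoA ligases return free fatty acids to the acyl-CoA pool. Acyl chains not needed for membranes are stored in lipid droplets as triacylglycerol, which fission yeast makes with a phospholipid-dependent and an acyl-CoA-dependent acyltransferase. Fission yeast lacks peroxisomal beta-oxidation, so stored lipid serves mainly as a reserve of acyl chains for membranes.

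The 12 libraries held between 26775612 and 27166349 counts. Features of rRNA took at most 0.717% of the counts except in replicate 2 of the 24 h group, where they took 2.84%. Levels are given as CPM, normalised read counts after TMM scaling of the libraries (counts relative to the scaled library size), and levels of different genes are compared only per kilobase of feature. In RNA from a whole culture, a change per cell and a change in the share of cells that express a gene cannot be told apart. The TMM factors were 1.01 to 1.07 in D2O samples and 0.879 to 0.944 in H2O samples.

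All 8 genes differed from the H2O samples after 5 h in D2O in the edgeR quasi-likelihood test (Benjamini-Hochberg adjusted p under 0.05), and 76.4% of the 6683 features tested did so. Of the 8 genes, 7 were lower, against 37.3% of all features, and only dga1 was higher, against 39.1%. The fall was at least 2-fold in 5 genes (cut6, fas1, fas2, SPCC1281.06c and lcf1), against 3.82% of features. With library-size scaling only SPCC1281.06c (-1.23) and lcf1 (-1.14) passed 2-fold, while cut6, fas1 and fas2 had log2 fold changes of -0.92, -0.92 and -0.98, and dga1 had 1.06. The median log2 fold change was -1.12 over the 8 genes and 0.01 over all features. The CPM values of the 4 samples at 5 h did not overlap those of the 4 H2O samples for any of the 8 genes, and 69.3% of features were also without overlap.

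After 24 h in D2O the pattern against H2O was split. Of the 8 genes, 7 differed in the edgeR test, against 81.2% of features: lcf2, plh1 and dga1 were higher (41.8% of features were) and fas1, fas2, lcf1 and SPCC1281.06c were lower (39.4% of features were). None of the 8 had changed 2-fold, and 21.1% of features had; with library-size scaling dga1 stood at the limit (1.00). Their median log2 fold change was -0.07, against 0.01 over all features, and 0.11 with library-size scaling. The split rests on the deposited counts, since plh1 shares positions with another gene, kgd2. With the counts of overlapping features subtracted 2 genes were higher and 5 lower, and the median was -0.32. The remainder of plh1 was then lower by more than 2-fold, but such a remainder is a lower limit and gives no bound on the change of plh1 itself. Between the times, 7 of the 8 genes differed and these were higher at 24 h than at 5 h by the deposited counts, where 68.3% of features differed and 33.6% were higher, and the median log2 fold change was 0.76. The exception was dga1. After the same subtraction 6 were higher and the remainder of plh1 was lower (log2 fold change -0.69, SE 0.048, edgeR adjusted p = 1.72e-08).

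**Figure D1:**
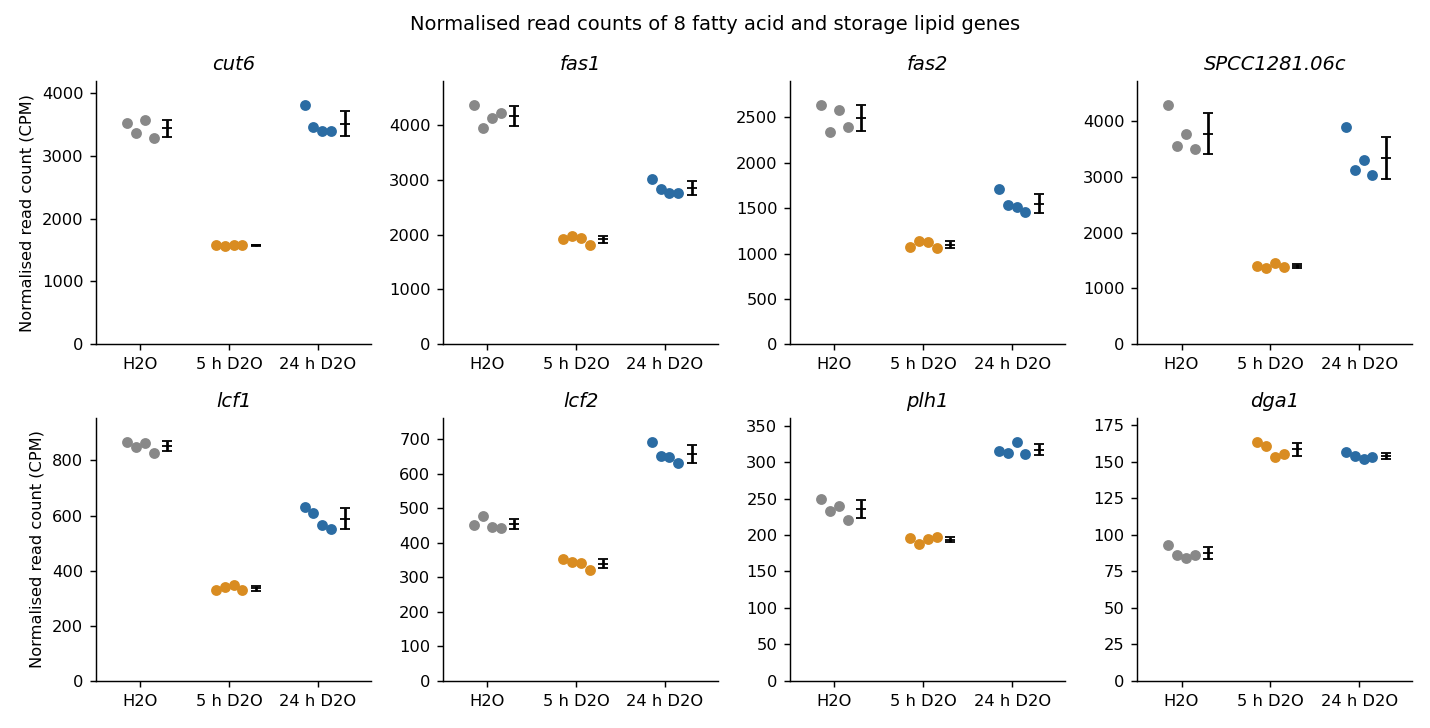
Normalised read count (CPM, linear axis from 0) of each gene in the 4 samples in H2O, at 5 h in D2O and at 24 h in D2O; points are samples, and the black mark and bar are the mean and SD. The 5 h samples of cut6 lie between 1569.7 and 1585 CPM, below every other sample, while the D2O samples of dga1 all lie above its H2O samples.

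The enzyme of the committed step, acetyl-CoA carboxylase, is encoded by cut6. Its level was 3534, 3362, 3572 and 3292 CPM in the H2O samples, 1579, 1569.7, 1585 and 1578 CPM at 5 h, and 3815, 3457, 3399 and 3393 CPM at 24 h. The 5 h samples were all low, and the 24 h samples overlapped the H2O samples. At 5 h cut6 was lower than in H2O (log2 fold change -1.12, SE 0.045, edgeR adjusted p = 1.84e-11). At 24 h the log2 fold change against H2O was 0.03 (SE 0.045, edgeR adjusted p = 0.523). The value at 24 h was sensitive to scaling and to replicate 1: it was 0.22 with library-size scaling (edgeR adjusted p = 1.30e-05) and -0.0097 without that replicate. At 24 h cut6 was higher than at 5 h (log2 fold change 1.16, SE 0.045, edgeR adjusted p = 2.88e-11).

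The synthase genes fas1 (beta subunit) and fas2 (alpha subunit) fell at 5 h and had recovered only in part at 24 h. The level of fas1 was 3941 to 4368 CPM in H2O, 1812 to 1968 CPM at 5 h and 2752 to 3025 CPM at 24 h. That of fas2 was 2345 to 2638 CPM in H2O, 1060.1 to 1134 CPM at 5 h and 1460 to 1706 CPM at 24 h. For both genes no group overlapped another. The log2 fold changes at 5 h against H2O were -1.12 for fas1 (SE 0.046, edgeR adjusted p = 2.37e-11) and -1.18 for fas2 (SE 0.056, edgeR adjusted p = 1.10e-10). At 24 h against H2O they were -0.55 for fas1 (SE 0.046, edgeR adjusted p = 3.14e-08) and -0.68 for fas2 (SE 0.056, edgeR adjusted p = 2.51e-08). With library-size scaling the value of fas1 at 24 h was -0.37 (edgeR adjusted p = 2.68e-07).

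The desaturase transcript SPCC1281.06c had the deepest fall of the 8 genes at 5 h by the deposited counts and was the highest of them per kilobase in every group. It stood at 4293, 3553, 3774 and 3497 CPM in the H2O samples, 1403, 1368, 1460.0 and 1379 CPM at 5 h, and 3892, 3127, 3310 and 3040 CPM at 24 h. The 5 h samples lay far below all the others, while H2O and 24 h samples overlapped. At 5 h the log2 fold change against H2O was -1.43 (SE 0.078, edgeR adjusted p = 5.40e-10). It overlaps no listed feature, and after subtraction of overlapping counts lcf1 (-2.43) and cut6 (-1.46) fell more. At 24 h it was -0.18 (SE 0.077, edgeR adjusted p = 0.0455). This last call was lost with the fit of the compared groups only, with protein-coding features only and without rRNA features. It was also lost when replicate 2, 3 or 4 at 24 h or replicate 1 or 3 in H2O was left out. Library-size scaling gave 0.0076 (edgeR adjusted p = 0.914). The call was kept with the replicate number as a block (edgeR adjusted p = 0.00851) and with DESeq2 (DESeq2 adjusted p = 0.0185). Between 24 h and 5 h the log2 fold change was 1.25 (SE 0.078, edgeR adjusted p = 5.06e-09).

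The ligase genes lcf1 and lcf2 encode the long-chain fatty acid-CoA ligases of fission yeast, and their levels parted in D2O. The level of lcf1 was 868, 848, 864 and 828 CPM in the H2O samples, 329, 339.5, 349 and 329.9 CPM at 5 h, and 631, 611, 564 and 551 CPM at 24 h. The level of lcf2 was 453, 476, 446 and 444 CPM in the H2O samples, 352, 344, 342 and 321 CPM at 5 h, and 693, 652, 649 and 631 CPM at 24 h. No group of either gene overlapped another. For lcf1 the log2 fold change against H2O was -1.34 at 5 h (SE 0.051, edgeR adjusted p = 9.85e-12) and -0.53 at 24 h (SE 0.050, edgeR adjusted p = 1.30e-07). For lcf2 it was -0.42 at 5 h (SE 0.048, edgeR adjusted p = 1.52e-06) and 0.53 at 24 h (SE 0.048, edgeR adjusted p = 8.63e-08). At 24 h against 5 h both were higher, with log2 fold changes of 0.81 for lcf1 and 0.95 for lcf2. Library-size scaling gave -0.22 for lcf2 at 5 h (edgeR adjusted p = 0.001) and -0.35 for lcf1 at 24 h (edgeR adjusted p = 1.61e-06).

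Triacylglycerol is made by Plh1, which takes the acyl group from a phospholipid, and by Dga1, which takes it from acyl-CoA. The level of dga1 was 93.0, 86.0, 84.2 and 86.3 CPM in the H2O samples, 163.6, 160.8, 153 and 155 CPM at 5 h, and 157, 154, 152 and 153 CPM at 24 h. Every D2O sample was above every H2O sample, and the groups in D2O overlapped. Against H2O the log2 fold change of dga1 was 0.86 at 5 h (SE 0.038, edgeR adjusted p = 4.66e-11) and 0.82 at 24 h (SE 0.038, edgeR adjusted p = 3.96e-11). At 24 h against 5 h it was -0.04 (SE 0.037, edgeR adjusted p = 0.353).

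The level of plh1 was 249, 233, 239.9 and 221 CPM in the H2O samples, 196, 188, 194 and 197 CPM at 5 h, and 315, 313, 328 and 311 CPM at 24 h. The groups did not overlap. Against H2O the log2 fold change of the deposited counts was -0.28 at 5 h (SE 0.045, edgeR adjusted p = 5.16e-05) and 0.43 at 24 h (SE 0.045, edgeR adjusted p = 4.89e-07). With library-size scaling the value at 5 h was -0.080 (edgeR adjusted p = 0.13).

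The plh1 counts cannot be read as plh1 alone, because plh1 overlaps kgd2, a gene on the opposite strand that encodes a subunit of the 2-oxoglutarate dehydrogenase complex, and the strandedness of the counts is not given in the sources used here. The count of kgd2 equalled 72.3% to 73.6% of that of plh1 in the H2O samples, 72.6% to 77.0% at 5 h and 89.8% to 90.6% at 24 h. The kgd2 feature itself had a log2 fold change of 0.73 at 24 h against H2O (SE 0.049, edgeR adjusted p = 2.91e-09). Subtracting the kgd2 count from the plh1 count leaves the reads that cannot have been shared, a lower limit on reads of plh1 alone. This remainder was 1595, 1578, 1516 and 1550 counts in the H2O samples, 1417, 1474, 1443 and 1290.0 at 5 h, and 815, 876, 891 and 850.0 at 24 h. The 24 h samples were the lowest by this measure and the highest by the deposited count. With the remainder in place of the deposited count, the log2 fold change at 24 h against H2O was -1.05 (SE 0.048, edgeR adjusted p = 4.13e-11). A ratio of lower limits does not bound the change of plh1, and reads of kgd2 alone also lower the remainder. The direction of plh1 at 24 h thus depends on how shared reads are treated and was not settled.

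Reads of lcf1 have the same limit, since it overlaps the non-coding feature SPNCRNA.1462 on the opposite strand. That feature had 59.8% to 66.7% of the count of lcf1 in the H2O samples, 77.8% to 90.1% at 5 h and 58.1% to 64.0% at 24 h. After subtraction lcf1 remained lower at 5 h against H2O (log2 fold change -2.43, SE 0.19, edgeR adjusted p = 1.87e-08) and at 24 h (-0.47, SE 0.18, edgeR adjusted p = 0.0226). Its value between the times was then 1.96, higher at 24 h (SE 0.18, edgeR adjusted p = 3.41e-07). Overlapping neighbours of cut6 (SPAC56E4.03) and fas2 (rog1) changed no call on the fold changes when subtracted, and fas1, SPCC1281.06c, lcf2 and dga1 overlapped no listed feature.

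**Figure D2:**
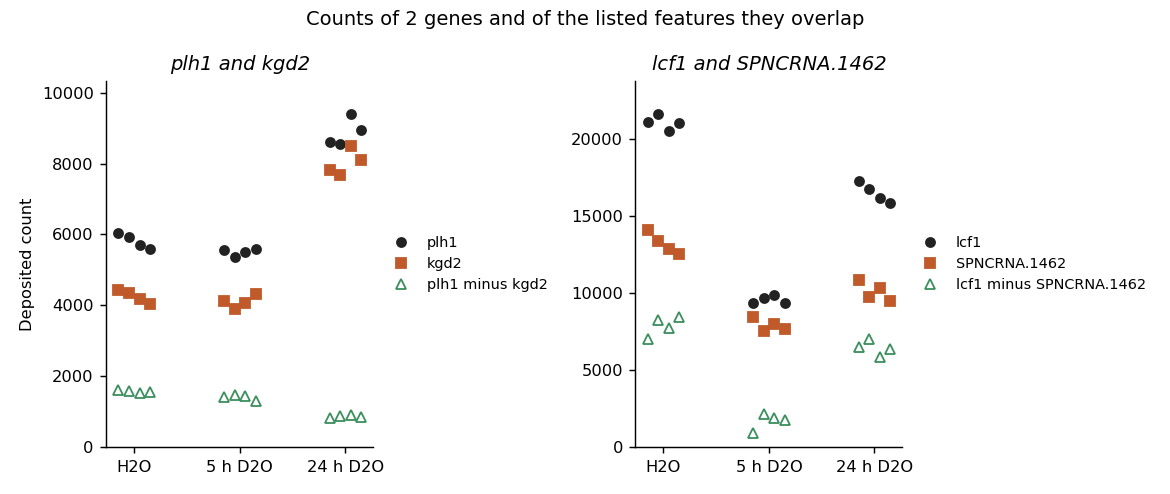
Deposited counts (linear axis from 0) of plh1 and kgd2 (left) and of lcf1 and SPNCRNA.1462 (right) in each sample, with the difference between the 2 counts as open triangles. The plh1 count is highest at 24 h, while plh1 minus kgd2 is lowest there, at 815 to 891 counts.

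Per kilobase of the deposited counts, SPCC1281.06c led in H2O with a TMM-scaled RPKM of 1601 ± 154 (SD, n = 4), followed by fas1 with 601 ± 25.9, cut6 with 476 ± 18.6 and fas2 with 432 ± 24.6. The samples of cut6 and fas2 overlapped. Below them were lcf1 with 333 ± 7.20, lcf2 with 164 ± 5.38, plh1 with 67.7 ± 3.44 and dga1 with 64.5 ± 2.86, and plh1 and dga1 overlapped. At 5 h dga1 reached an RPKM of 117 ± 3.47, which overlapped lcf2 at 122 ± 4.84. At 24 h cut6, with an RPKM of 487 ± 27.9, stood above fas1, with 411 ± 18.3, and lcf2 (237 ± 9.49) overlapped lcf1 (230.4 ± 14.8). The desaturase remained first at both times, and plh1 was last in both groups in D2O.

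**Figure D3:**
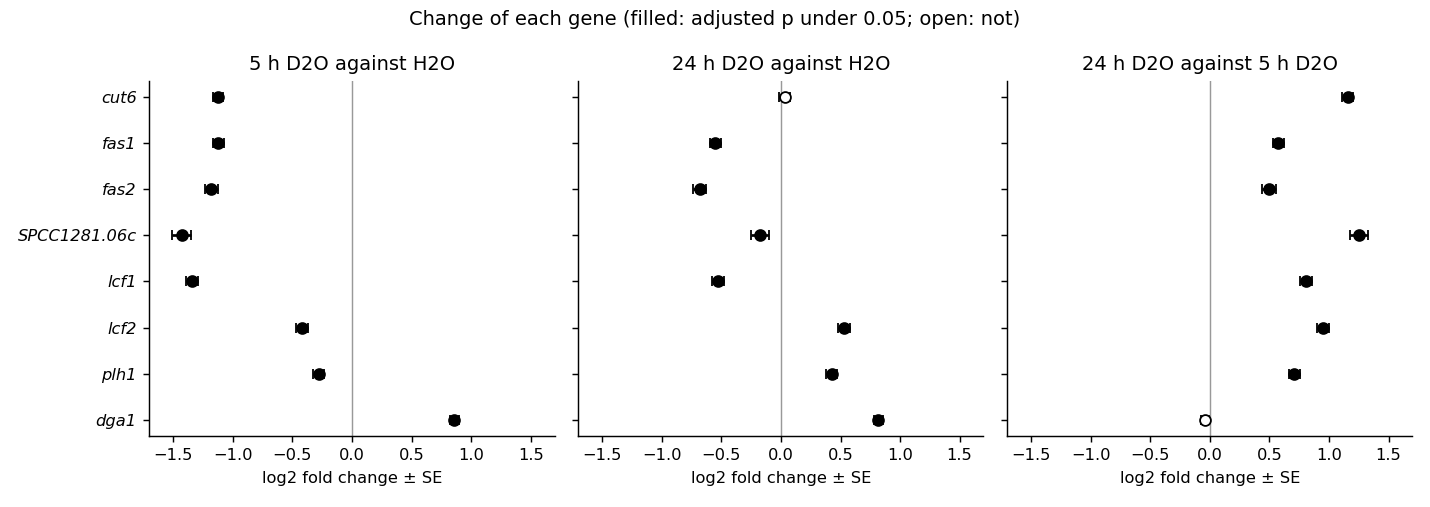
Log2 fold change (x axis) of the 8 genes (y axis) in 3 comparisons, with the standard error as a bar; filled points have an edgeR adjusted p under 0.05. At 5 h 7 genes lie left of 0, and at 24 h against 5 h 7 genes lie right of 0, all by the deposited counts.

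Ratios between genes within a library do not depend on the scaling factor. They were computed from counts per kilobase for 5 gene pairs and compared in 15 two-sided exact permutation tests with 4 samples a side, which can give no p below 0.0286; p-values were adjusted over the 15 tests, with the deposited counts and with the subtracted counts separately. The ratio of lcf2 to lcf1 was 0.929 at 5 h and 0.492 in H2O, a log2 difference of 0.92 (exact permutation adjusted p = 0.0429), or 2.08 after subtraction of the count of SPNCRNA.1462 from lcf1. At 24 h it was 1.03, a log2 difference of 1.06 from H2O (exact permutation adjusted p = 0.0429). The ratio of dga1 to plh1 was 2.10 at 5 h and 0.953 in H2O, a log2 difference of 1.14 (exact permutation adjusted p = 0.0429), and it was 1.25 at 24 h, a log2 difference of 0.39 from H2O (exact permutation adjusted p = 0.0429). After subtraction of the kgd2 count this last difference was 1.86. Between 24 h and 5 h the log2 difference was -0.75 with the deposited counts and 0.65 after subtraction, the opposite direction.

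The fas1 transcript was lower relative to that of cut6 at 24 h than in H2O. The ratio of fas1 to cut6 was 1.26 at 5 h and 1.26 in H2O (log2 difference 0.001, exact permutation adjusted p = 1.0; samples from 1.20 to 1.31 at 5 h and from 1.21 to 1.34 in H2O). With the count of SPAC56E4.03 subtracted from cut6, the 5 h samples were higher by 0.33 on the log2 scale (exact permutation adjusted p = 0.033). At 24 h it was 0.844, a log2 difference of -0.58 from H2O (exact permutation adjusted p = 0.0429), and the groups did not overlap. The subunit ratio of fas2 to fas1 was 0.691 at 5 h and 0.719 in H2O (log2 difference -0.06, exact permutation adjusted p = 0.153; -0.17 with the count of rog1 subtracted from fas2, exact permutation adjusted p = 0.033), and at 24 h it was 0.655, a log2 difference of -0.13 from H2O (exact permutation adjusted p = 0.0429). The ratio of SPCC1281.06c to cut6 was 2.72 at 5 h and 3.35 in H2O, a log2 difference of -0.30 (exact permutation adjusted p = 0.0429), and 2.90 at 24 h, a log2 difference of -0.21 from H2O (exact permutation adjusted p = 0.0429). The call at 5 h was lost after subtraction of the SPAC56E4.03 count from cut6, with a log2 difference of 0.032 (exact permutation adjusted p = 0.571). The comparisons at 5 h and at 24 h share the H2O samples.

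**Figure D4:**
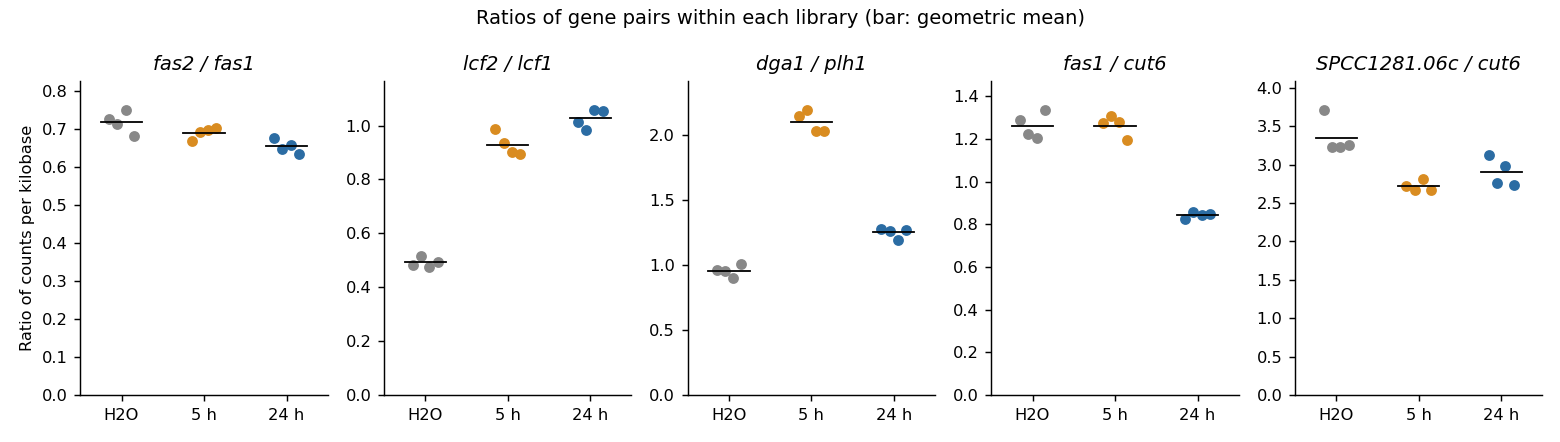
Ratio of counts per kilobase (linear axis from 0) of 5 gene pairs in each library in H2O and at 5 h and 24 h in D2O; points are libraries and bars are geometric means. The ratio of lcf2 to lcf1 lies between 0.896 and 1.06 in D2O and between 0.476 and 0.518 in H2O.

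Other genes of lipid metabolism were taken from 7 lists with 48 genes in all. At 5 h 24 were lower than in H2O and 15 higher in the edgeR test (37.3% and 39.1% of all features), with a median log2 fold change of -0.19, and at 24 h 18 were lower and 19 higher (39.4% and 41.8% of all features), with a median of 0.01. With library-size scaling, under which the median feature moved by 0.21 at 5 h and 0.20 at 24 h, 21 were lower and 20 higher at 5 h, and 13 lower and 29 higher at 24 h. The split of directions in the lists therefore depended on the scaling.

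Of 6 genes that supply acetyl-CoA and biotin, 5 were lower than in H2O at 5 h and 0 higher (37.3% and 39.1% of all features). The biotin transporter gene vht1 had a log2 fold change of -0.07 (edgeR adjusted p = 0.553). None of the 6 had a positive value with TMM scaling, but library-size scaling moved the median feature by 0.21, more than the size of the vht1 value. Of the 5, bpl1 overlaps lsm4, whose count is 94.3% to 95.8% of its own. For SPBC1703.07 the overlapping feature SPBC1703.08c has 40.4% to 48.8% of its count. For acs1 the overlapping feature SPCC191.03c has 15.1% to 19.9%, and SPAC22A12.16 has an overlap given below. Of the 5, only bio2 overlaps no listed feature. The acetyl-CoA ligase gene acs1 was at 191 ± 12.5 CPM at 5 h and 584 ± 50.4 CPM in H2O (SD, n = 4; log2 fold change -1.61, SE 0.068, edgeR adjusted p = 2.92e-11). The biotin synthase gene bio2, whose product makes the cofactor carried by Cut6, was at 155 ± 16.1 CPM at 5 h and 360.4 ± 5.75 CPM in H2O (log2 fold change -1.21, SE 0.074, edgeR adjusted p = 1.73e-09). At 24 h 4 of the 6 were lower, against 39.4% of all features, and vht1 was higher (log2 fold change 0.31, SE 0.098, edgeR adjusted p = 0.0101). Values at 24 h were -1.07 on the log2 scale for acs1 and -0.81 for SPAC22A12.16, which encodes a subunit of ATP citrate synthase and overlaps SPAC22A12.17c, whose count is 101% to 130.1% of its own. The value for bio2 at 24 h was 0.02 (SE 0.073, edgeR adjusted p = 0.823).

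Of 7 genes for elongation, modification and binding of acyl chains, 4 were lower at 5 h, and 3 did not pass the test. Of all features, 37.3% were lower and 76.4% passed the test at 5 h. At 24 h 3 of the 7 were lower and 2 higher (39.4% and 41.8% of all features). The elongase-family gene SPAC1B2.03c was at 406 ± 35.7 CPM at 5 h and 782 ± 59.5 CPM in H2O (log2 fold change -0.95, SE 0.088, edgeR adjusted p = 1.76e-07), and at 24 h its log2 fold change against H2O was -1.51 (SE 0.090, edgeR adjusted p = 6.59e-10). The enoyl reductase gene tsc13 fell by 0.72 on the log2 scale at 5 h, and phs1, whose counterpart in Saccharomyces cerevisiae is the dehydratase of the elongation cycle, fell by 0.94 at 24 h. The rises at 24 h were small, with log2 fold changes of 0.17 for the hydroxylase gene scs7 and 0.19 for the acyl-CoA binding protein gene acb1.

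Of 9 genes for turnover of triacylglycerol and sterol esters, 5 were higher and 4 lower at 5 h (39.1% and 37.3% of all features). At 24 h 7 were higher and 1 lower (41.8% and 39.4% of all features). The called values of are1 (0.12), SPBC1718.04 (0.12) and slc1 (-0.15) at 24 h were smaller than the shift of the median feature with library-size scaling (0.20). The sterol acyltransferase gene are2, whose product stores sterol as esters in lipid droplets, was at 130.6 ± 8.82 CPM at 5 h and 72.1 ± 5.65 CPM in H2O (log2 fold change 0.86, SE 0.063, edgeR adjusted p = 1.23e-08). At 24 h are2 was at 205 ± 11.2 CPM, and its log2 fold change against H2O was 1.51 (SE 0.063, edgeR adjusted p = 1.41e-11). The lipin gene ned1, a phosphatidate phosphatase that yields diacylglycerol, was at 170.2 ± 9.81 CPM at 24 h and 68.3 ± 3.83 CPM in H2O (log2 fold change 1.32, SE 0.052, edgeR adjusted p = 7.90e-12). It overlaps mrpl25, whose count was 14.5% to 69.6% of that of ned1. For nem1, the catalytic subunit of the phosphatase that acts on lipin, the log2 fold change was 0.82 at 5 h, and utp3, which overlaps it, had 68.4% to 346% of its count. The largest falls at 5 h were in SPBC1718.04, the glycerol-3-phosphate acyltransferase gene (-0.56), and in the lipase gene ptl2 (-0.47), which shares positions with abo1. The abo1 count was 91.5% to 104% of that of ptl2 at 5 h and 80.1% to 88.1% in H2O. Whether the ptl2 reads are its own was not tested. At 24 h the only fall called was in slc1 (-0.15), an acyltransferase gene of phosphatidate synthesis. It overlaps nuc2, whose count was 48.7% to 72.7% of its own.

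The transcription factor list held 3 genes, and each passed the test at both times. Of all features, 76.4% passed at 5 h and 81.2% at 24 h. Library-size scaling moved the median feature by 0.21 at 5 h and 0.20 at 24 h. The values of mga2 and cbf11 were about that size or smaller, so their directions may depend on the scaling. Mga2 is known to act on fatty acid desaturation, and mga2 had a log2 fold change of -0.23 at 5 h (SE 0.044, edgeR adjusted p = 2.59e-04) and 0.22 at 24 h (SE 0.044, edgeR adjusted p = 3.07e-04). The gene cbf11, for a CSL-family factor known to activate lipid genes including cut6, had 0.13 at 5 h (SE 0.036, edgeR adjusted p = 0.0039) and -0.14 at 24 h (SE 0.036, edgeR adjusted p = 0.00194). Its paralog cbf12 was lower at both times, with -0.57 at 5 h (SE 0.074, edgeR adjusted p = 5.90e-06) and -0.51 at 24 h (SE 0.074, edgeR adjusted p = 1.32e-05).

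Among 12 phospholipid synthesis genes, 6 were lower and 4 higher at 5 h (37.3% and 39.1% of all features). At 24 h 4 were lower and 3 higher (39.4% and 41.8% of all features). The glycerol-3-phosphate dehydrogenase genes moved apart: gpd1 was at 1377 ± 195 CPM at 5 h and 799 ± 70.9 CPM in H2O (log2 fold change 0.78, SE 0.093, edgeR adjusted p = 2.37e-06), while gpd2 fell by 1.06 on the log2 scale at 24 h (SE 0.053, edgeR adjusted p = 1.02e-10). At 24 h the log2 fold change was 0.79 for gpd1 and 0.84 for psd2, a phosphatidylserine decarboxylase gene. However, psd2 overlaps mss51, whose count was 31.6% to 61.4% of its own, and gpd2 overlaps SPNCRNA.979 (19.8% to 32.9%). The rises at 5 h included psd1, which encodes another such decarboxylase (0.47), and the falls included pis1, the phosphatidylinositol synthase gene (-0.54). The largest fall at both times was in SPBC13A2.03, the CDP-diacylglycerol synthase gene, with -1.07 at 5 h and -1.53 at 24 h. The feature ptr2 overlaps it and had 454% to 969% of its count, and whether the reads are its own was not tested.

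The sphingolipid and mitochondrial lists were smaller. Of 6 sphingolipid genes, 2 were higher and 2 lower at each time. To set beside the counts of both lists, 39.1% of all features were higher and 37.3% lower at 5 h. At 24 h these shares were 41.8% and 39.4%. The hydroxylase gene sur2 was at 869 ± 24.3 CPM at 5 h and 332 ± 39.4 CPM in H2O (log2 fold change 1.39, SE 0.074, edgeR adjusted p = 3.86e-10), and its log2 fold change at 24 h was 1.59. The other called changes in sphingolipid genes were lcb1 (0.27 at 5 h), aur1 (0.29 at 24 h), and the ceramide synthase genes lac1 (-0.49 at 5 h and -0.64 at 24 h) and lag1 (-0.42 at 5 h and -0.92 at 24 h). Among these, lcb1 overlaps SPBC18E5.01, whose count was 32.5% to 63.9% of its own. For aur1 and its antisense feature this share was 40.9% to 52.8%. It was 33.3% to 43.0% for lac1 and smf1, and lac1 also overlaps an antisense feature. Of 5 genes for mitochondrial fatty acid synthesis, 3 were higher and 1 lower at 5 h, and 3 were higher and 2 lower at 24 h. The largest value in any list was that of etr1, an enoyl reductase gene, with 1.95 at 5 h and 2.24 at 24 h, but it overlaps pda1, whose count was 124% to 983% of its own. SPAC4H3.09, annotated as a type II synthase subunit, had 0.25 at 5 h, and oar2 had 0.26 at 24 h. The gene mct1 had -0.33 at 5 h and -0.70 at 24 h, and cem1 (SPBC887.13c) had 0.21 at 5 h and -0.19 at 24 h. Both overlap features with counts several times their own, ubi1 for mct1 and SPBC887.12 for cem1.

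**Figure D5:**
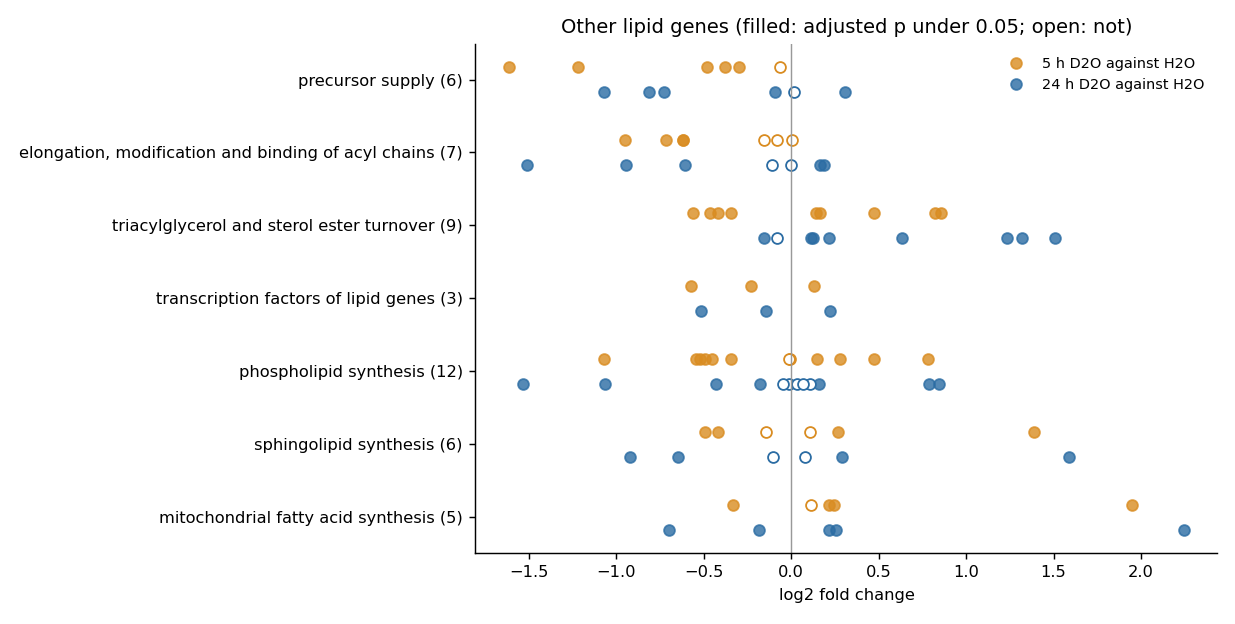
Log2 fold change (x axis) of the 48 other lipid genes in 7 lists (y axis, number of genes in parentheses) at 5 h and 24 h in D2O against H2O; each point is a gene, filled where the edgeR adjusted p is under 0.05. With TMM scaling, no gene for precursor supply lies to the right of 0 at 5 h. At 24 h, 3 genes for triacylglycerol and sterol ester turnover lie above 1.

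For each gene, the protein-coding feature with the most similar profile was found as the smallest root mean square difference of log2 CPM, relative to the H2O mean, over the 12 samples. The nearest to cut6 was bio2, at 0.14 on the log2 scale, among 4866 candidates. The smallest of so many values lies below their median (0.716) by construction, and 0.14 was the largest such value among the 8 genes. The feature nearest to fas1 was SPAC1039.01 (0.071), and snd1 was nearest to both fas2 (0.073) and lcf1 (0.117). The hexose transporter gene ght8 was nearest to SPCC1281.06c (0.135), cnl2 to lcf2 (0.074), the protein kinase gene ksg1 to plh1 (0.068) and rhp16 to dga1 (0.056). Among the 8 genes themselves, fas1 and fas2 were the most alike (0.092), then lcf2 and plh1 (0.12), and lcf1 and dga1 were the least alike (1.49). With overlapping counts subtracted, lcf2 and plh1 were far apart (0.912), cut6 and SPCC1281.06c were the most alike (0.146), then fas1 and fas2 (0.167), and lcf1 and dga1 remained the least alike (2.10). Subtraction also changed the nearest feature, to ght8 for cut6 (0.138), rgs1 for fas2 (0.103), mei2 for lcf1 (0.353) and SPCC1827.06c for plh1 (0.0702).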

How the data were processed

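RNA sequencing of 12 samples (3 groups of 4, grouped by title) was analysed. The deposited tables list, per the file headers, a count of reads and an RPKM per feature. Per the submitters' processing notes, reads were aligned with BWA 0.7.12; the counting program, genome build, annotation, strandedness and filters are not given in the sources used here. The deposited RPKM equalled count, length and column total recombined (largest relative difference 4.96e-06) and was not tested.

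Counts were tested with edgeR 4.0.16 (limma 3.58.1, R 4.3.3): 1 quasi-likelihood model of all 12 samples with group as its term, TMM factors and filterByExpr at a minimum of 10 counts, which kept 6683 of 7015 features. Benjamini-Hochberg adjustment ran over all features tested. Each standard error is the size of the log2 fold change over the square root of its F value. The biological coefficient of variation was 8.47%. The model was tested on simulated data. DESeq2 1.42.0 was an alternative.

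Features were matched to the RefSeq annotation of ASM294v3 for names, classes and overlaps only (97.6% matched). Of 49 genes written into the lists, spo7 was left out, because the feature of that name is annotated as an ArfGEF. Named list genes were, per list and time, the up to 2 largest called rises and falls. Members and lists were chosen with earlier results of these data known. A planned motif search was not run; promoter and protein sequences were not used here.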

Additional observations from a re-analysis of the deposited data

Results flagged for a closer look

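In cut6, replicate 1 of the 24 h group stood apart from the others of its group, at 3815 CPM against 3393 to 3457 CPM. It was the only such case among 24 groups of 4 samples, and chance gives about 1 in 20.

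In 7 genes the level differed between the times by the direct edgeR test of 24 h against 5 h, where 68.3% of all features differed. The log2 fold changes were 1.16 for cut6, 0.57 for fas1, 0.50 for fas2, 1.25 for SPCC1281.06c, 0.81 for lcf1, 0.95 for lcf2 and 0.71 for plh1. The value for plh1 rests on deposited counts that may include reads of kgd2, and was -0.69 with the kgd2 count subtracted.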

How the results depend on the processing

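With the replicate number as a block, 8, 7 and 7 of the 8 genes were called at 5 h against H2O, at 24 h against H2O and at 24 h against 5 h, as without it, and 5199, 5490 and 4678 features were, against 5108, 5429 and 4563 without it. Same-numbered samples did not deviate together in every pair (correlations from -0.18 to 0.58). For 24 h against 5 h their mean correlation was 0.21, against -0.07 for samples of different numbers. For 24 h against H2O these values were 0.08 and -0.03, and for 5 h against H2O -0.007 and 0.003. The labels state no pairing, and the numbers were not taken as pairs. The block changed no call on the 8 genes, but the SE of SPCC1281.06c at 24 h against H2O fell from 0.077 to 0.054. Exact permutation tests of the ratios with the block or with a replicate left out cannot pass the threshold and were read as values only.

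Library-size scaling left 2 of 5 falls at 5 h past 2-fold, and gave -0.080 for plh1 and -0.22 for lcf2 at 5 h, 0.22 for cut6 at 24 h and 0.0076 for SPCC1281.06c at 24 h. For SPCC1281.06c at 24 h the call was also lost with the compared groups only (-0.186), with protein-coding features only (-0.173), without rRNA features (-0.178) and when replicate 2, 3 or 4 at 24 h or replicate 1 or 3 in H2O was left out (range over all replicates left out -0.26 to -0.11). For cut6 at 24 h that range was -0.0097 to 0.051. With protein-coding features only, 520 features changed 2-fold at 5 h (821 otherwise) and 235 between the times (426 otherwise).

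Subtracting overlapping counts was chosen after seeing the data. It leaves a loose limit where the neighbour has reads of its own and gives no bound on a fold change. It turned plh1 to -1.05 at 24 h against H2O and -0.69 at 24 h against 5 h. Of the ratio differences, it turned lcf2 to lcf1 (-1.08) and dga1 to plh1 (0.65) at 24 h against 5 h, and SPCC1281.06c to cut6 at 5 h against H2O (0.032) and at 24 h against 5 h (-0.25). It brought 2 others past the threshold, fas2 to fas1 (-0.17) and fas1 to cut6 (0.33) at 5 h against H2O. The cause of these changes was not tested beyond the subtraction itself. Depth was not limiting, since the lowest count of any of the 8 genes was 2000.0.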

Other observations

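The cut6 count at 5 h was 44741, 44818, 44925 and 44828 in the 4 samples. These counts had an SD of 75.4. The CPM of cut6 at 5 h varied by 0.402% of the mean, where counting alone gives 0.472%. In the other 23 sets of 4 samples of the 8 genes the variation was 1.34% to 11.5%. The 1.34% was that of dga1 at 24 h, also below its counting value of 1.52%. The widest spread was that of SPCC1281.06c at 24 h.

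The 8 genes together held 1.42% ± 0.046 of all counts in H2O, 0.738% ± 0.014 at 5 h and 1.35% ± 0.064 at 24 h (SD, n = 4 each).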
